A study of Mus musculus with 6 samples.

Results

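DEAD and DEAH box proteins are the main families of RNA helicases, enzymes that use ATP to unwind or remodel RNA and RNA-protein complexes. Their genes were taken as the symbols of the deposited mouse count table that begin with Ddx or Dhx and a digit. Of 55 such symbols, 3 were removed (Ddx58 and Dhx58, which encode the RIG-I-like receptors RIG-I and LGP2, and the Y-linked Ddx3y), and no pseudogene symbol was among them. This left 52 of the 48587 genes in the table. Of the 52 genes, 48 reached at least 1 cpm (the count of a gene relative to library depth) in at least 3 libraries, the limit below which no fold change was computed.

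The libraries came from 4T1 cells, a mouse mammary carcinoma line, and held total RNA depleted of ribosomal RNA. In the METTL7A1 group (n = 3) the cells carried full-length Mettl7a1 cDNA in the pBICEP-CMV-2 vector, stably transfected and driven by the CMV promoter, and in the mock group (n = 3) the empty vector. Cells of both groups were kept in G418. METTL7A1 is a putative methyltransferase, and the study followed DDX3X among its protein partners. Whether the transfected cells were a single clone or a pool is not given in the sources used here, so the p values measure the spread between these cultures only.

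The libraries held 18386780 to 28459338 counts each. Mettl7a1 had 6355, 11358 and 10398 counts in the METTL7A1 libraries and 30, 30 and 29 in mock, so every library followed its label. The epithelial markers Krt8, Krt18, Epcam and Cdh1 had 2063 to 19086 counts per library. Of the other cell type markers, Cd3e had 0 counts and Ptprc 3 to 8, Pecam1 and Cdh5 had at most 16, and Cd68, a lysosomal protein gene also used outside immune cells, had 85 to 390 counts and a log2 fold change of 1.23 (SE 0.14), whose part in the results was not tested. A lower count of a transcript can come from fewer cells that use the gene or from less RNA per cell, which cannot be told apart in these bulk libraries.

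The families share a helicase core in which motif II, also called the Walker B motif, binds the magnesium ion needed for ATP hydrolysis and gives both families their name. DEAD box proteins mostly open short duplexes locally, whereas DEAH box proteins mostly move along a strand, and together they act at nearly every step in the life of an RNA: transcription, splicing, ribosome assembly, export, translation and decay. Ribosome assembly, which proliferating tumour cells carry out at a high rate, needs a long series of these enzymes.

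In METTL7A1 cells the transcripts of these helicases were more often lower than higher, and by small amounts. With METTL7A1, 25 of the 48 tested genes fell (52.1%, against 21% of all 13166 tested genes) and 2 rose (4.17%, against 21.1%) at an adjusted p under 0.05 (edgeR quasi-likelihood test, Benjamini-Hochberg adjustment over all tested genes). The genes that rose were Ddx60, an interferon-induced helicase with a log2 fold change of 1.27 (SE 0.11), and Ddx50, a nucleolar helicase with 0.54 (SE 0.07). The largest falls were those of Ddx41 with -0.86 (SE 0.08), Ddx1 with -0.74 (SE 0.08), Dhx29 with -0.70 (SE 0.08), Dhx33 with -0.69 (SE 0.07) and Ddx31 with -0.67 (SE 0.08). The abundant helicases Ddx5 and Ddx3x had small falls of -0.24 (SE 0.09) and -0.26 (SE 0.08), which passed the test narrowly.

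The sequence that names the families was read from the longest coding transcript of each gene (GENCODE M21, build GRCm38, mm10). Of the 52 genes, 27 encoded DEAD, 9 DEAH, 5 DEVH, 3 DEVD, 2 DECD, 2 DEIH and 1 DESD at motif II. In Dhx32 no such motif was found, and 2 symbols (Ddx26b and the noncoding Dhx58os) had no coding transcript under that name. The lines show, for genes on which the results turn, 30 coding bases with the codons of motif II in capitals, 5′ to 3′ on the coding strand. The first 5 are of the DEAD type, and Ddx5 and Ddx17 are close paralogs.
Ddx5: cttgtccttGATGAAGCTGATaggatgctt
Ddx17: cttgtgttgGATGAGGCTGACcggatgctt
Ddx3x: ctggtgttaGATGAAGCTGACcggatgtta
Ddx41: ctagccctgGATGAAGCTGACcgcatgatt
Ddx1: ctggtcctgGATGAAGCAGATgggcttctc
Dhx33: gtcattttgGACGAGGCCCATgagcggact
Dhx15: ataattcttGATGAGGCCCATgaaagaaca
Ddx39: tttgtgctaGATGAATGTGACaagatgctg
Ddx50: gttgtgcttGATGAAGTAGATcaaatgtta
Ddx21: gttgtcctgGATGAAGTCGACcagatgttg
Dhx29: gtcattgtcGATGAGGTCCATgagagaagt
Ddx60: gttatatttGATGAGGTCCATtgccttggt
Dhx33 and Dhx15 are of the DEAH type, Ddx39 is DECD, the adjacent paralogs Ddx50 and Ddx21 are DEVD, and Dhx29 and Ddx60 are DEVH. Among the genes shown, Ddx3x and Ddx41 used the same 12 bases for their motif, as did Dhx29 and Ddx60. Each of these 2 sequences was found in 3 helicase genes, the third being Ddx56 and Dhx30, respectively.

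These stretches lie in coding exons, for Ddx5 in exon 7 of 13 at chr11:106785184-106785213 (minus strand), for Ddx3x in exon 11 of 17 at chrX:13289399-13289428 (plus strand) and for Ddx41 in exon 10 of 17 at chr13:55533047-55533076 (minus strand). In Ddx1, Dhx29 and Ddx60 the stretch is joined from both sides of an intron. By type of motif, 16 of the DEAD genes fell, 8 were not called and 3 were not tested, and of the DEAH genes 5 fell and 4 were not called. The 2 genes that rose were of the DEVH and DEVD types. Of the other DEVH genes 2 fell and 2 were not called, and the other 2 DEVD genes were not called. Counted by symbol, 20 of 33 tested Ddx genes (60.6%) were called, 2 higher and 18 lower. Of 15 tested Dhx genes 7 were called (46.7%), all of them lower. Among all tested genes 42.1% were called, 21.1% higher and 21% lower.

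Levels were compared between genes per length, as cpm per kilobase of exon. In mock cells the highest was Ddx5, a coactivator and splicing helicase, at 301 ± 5.07 (SD, n = 3). Ddx17, its paralog, followed at 119 ± 7.42, Dhx15, which takes apart spent spliceosomes, at 115 ± 3.33, Ddx1, a subunit of the tRNA ligase complex, at 99.0 ± 7.89, and Ddx3x, a translation helicase, at 97.2 ± 8.09. Ddx5 stood apart from all others. Ddx17 and Dhx15 lay within an SD of each other, as did Ddx1 and Ddx3x, while the step from Dhx15 to Ddx1 was larger than either SD. The lowest of the tested genes were Ddx26b, included by its symbol and with no motif II read, with 1.15 and Ddx60 with 1.49 cpm per kilobase.

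The helicase genes together took 5581 to 5940 cpm in METTL7A1 libraries and 6313 to 6591 cpm in mock libraries, so that the ranges did not overlap. Under the abundance limit were Ddx25 (1 to 3 counts per library), Ddx4 and Ddx43 (at most 1 count) and Dhx58os (at most 4 counts). Ddx4 and Ddx25 are known from germ cells.

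**Figure D1:**
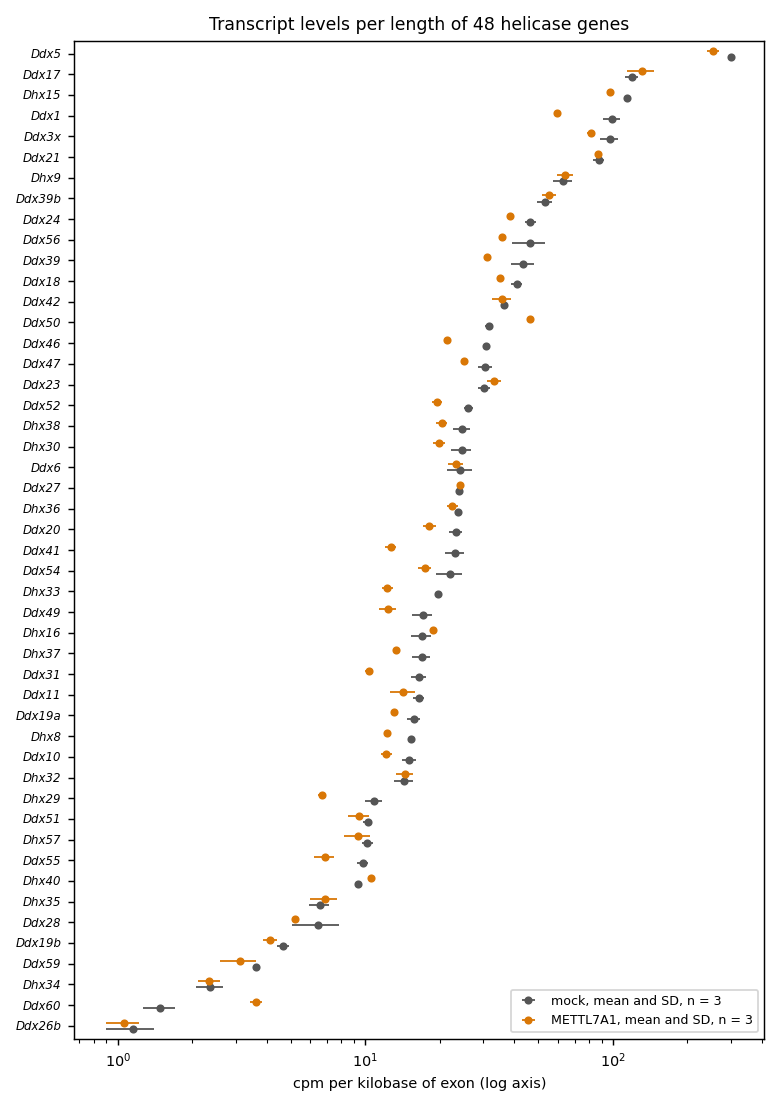
Mean cpm per kilobase of exon (log axis) of the 48 tested helicase genes in mock (grey) and METTL7A1 (orange) libraries, with SD (n = 3 each), ordered by the mock level. The levels in mock span from 1.15 (Ddx26b) to 301 (Ddx5), and most of the orange points lie to the left of the grey ones, with Ddx60 and Ddx50 clearly to the right.

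Over all genes, 42.1% of the 13166 tested were called at an adjusted p under 0.05, 21.1% higher and 21% lower, so that calls were common in this comparison. Among the helicase genes 27 of 48 (56.2%) were called, 4.17% higher and 52.1% lower. Their median log2 fold change was -0.24, against -0.03 for all tested genes, while the median absolute log2 fold change, 0.26, was close to the 0.25 of all genes. In 39 of the 48 genes the absolute log2 fold change was under 0.5. The METTL7A1 and mock libraries did not overlap for 29 helicase genes (60.4%), 3 higher (Ddx60, Ddx50 and Dhx40) and 26 lower, against 51.6% of all tested genes.

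The thresholds of the study were an adjusted p under 0.01 and an absolute log2 fold change over 1.5. At these, 0 helicase genes were called by edgeR, DESeq2 or limma voom. In edgeR 29 had an unadjusted p under 0.05, and the matching number over all tested genes was not counted. The thresholds of the study called 2.48% of all tested genes. A lower limit of 1.5-fold on the linear scale at the same adjusted p, tried as an alternative, admitted 6 of 48 helicase genes (12.5%): Ddx60, Ddx41, Ddx1, Dhx29, Dhx33 and Ddx31. This was near the 13.3% of all tested genes that passed it. In fits that left out 1 library at a time, 17 of the 27 called genes were called in all 6 fits, 2 higher and 15 lower, and the number called ranged from 19 (without mock replicate 1) to 29 (without METTL7A1 replicate 1). Among all tested genes, 4251 of 12997 were called without mock replicate 1 and 5373 of 12898 without METTL7A1 replicate 1. With every library included, 5537 of 13166 were called. How many of these were called in all 6 fits was not counted.

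**Figure D2:**
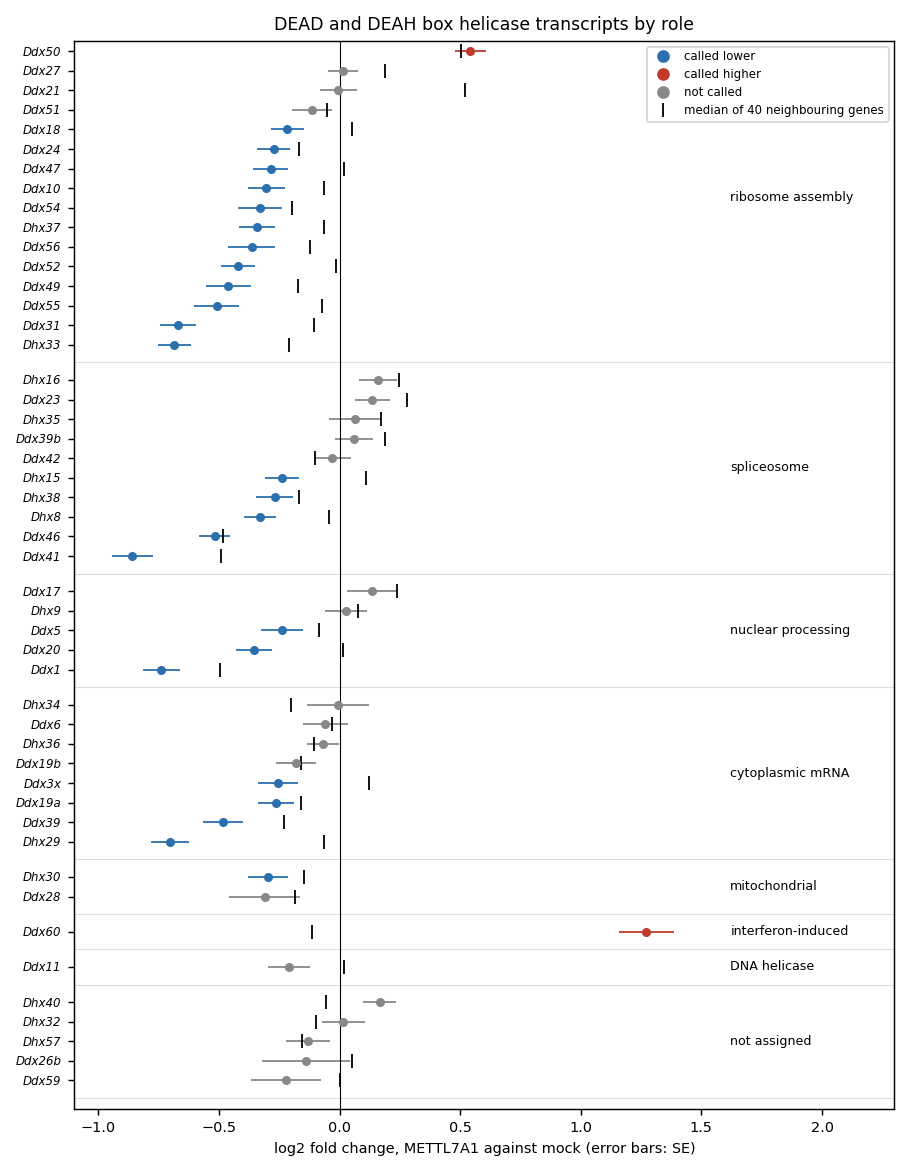
Log2 fold change (METTL7A1 against mock) of the 48 tested helicase genes by role, with SE as bars. Blue and red points are genes called lower and higher, grey points were not called, and black ticks mark the median of the 40 nearest genes on the chromosome. Ddx60 at 1.27 lies apart from all others, and 12 of the 16 ribosome assembly genes lie among the called falls (21% of all tested genes fell).

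Ribosome assembly takes place mainly in the nucleolus, where helicases release small nucleolar RNAs from the precursor of ribosomal RNA and open it for cleavage and folding. Of 16 genes with this role, all tested, 12 fell, 1 rose and 3 were not called, with a median log2 fold change of -0.32. Among all tested genes 21% fell and 21.1% rose, with a median of -0.03. When the changes of neighbouring genes were taken into account (below), the calls of Ddx50, Ddx24, Ddx54 and Ddx56 were lost. Dhx33 (chromosome 11, 70984091 to 71004437 in mm10), a nucleolar helicase tied to transcription of ribosomal DNA, had 1250, 1836 and 1518 counts with METTL7A1 and 1942, 2466 and 2467 in mock, in the order of the replicate numbers, as for all genes. At equal depth this was 63.7 ± 3.19 against 102 ± 3.48 cpm (SD, n = 3 each), where the highest METTL7A1 library (67.4 cpm) lay far below the lowest mock library (99.3 cpm). On the log2 scale the fall was -0.69 (SE 0.07, edgeR adjusted p = 2.19e-05).

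Ddx31 (chromosome 2, 28840459 to 28905571), which acts on the precursor of the large subunit, had 645, 1013 and 803 counts with METTL7A1 and 1007, 1205 and 1412 in mock. Its level was 33.9 ± 1.16 against 53.9 ± 3.70 cpm (SD, n = 3 each), a log2 change of -0.67 (SE 0.08, edgeR adjusted p = 5.19e-05). All METTL7A1 libraries lay close together and below mock replicate 2, the lowest of its group. Ddx55, the counterpart of yeast Spb4, had 383, 585 and 424 counts against 501, 628 and 712, or 19.2 ± 1.80 against 27.3 ± 1.37 cpm, and a log2 change of -0.51 (SE 0.09, edgeR adjusted p = 0.00115). The groups were apart, and METTL7A1 replicate 3 was the lowest library.

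Ddx49 and Ddx52, helicases of the small subunit pathway, fell by similar amounts. Ddx49 had 458, 845 and 636 counts with METTL7A1 and 703, 929 and 806 in mock, a level of 26.4 ± 2.03 against 36.4 ± 3.43 cpm and a log2 change of -0.46 (SE 0.09, edgeR adjusted p = 0.00225). Its exons overlap Homer3 on the opposite strand, and Homer3 had at most 543 counts in a library. Ddx52 had 1223, 1807 and 1481 counts against 1513, 2117 and 1990, or 62.4 ± 3.10 against 83.4 ± 3.68 cpm, and a log2 change of -0.42 (SE 0.07, edgeR adjusted p = 0.000668). In both genes the METTL7A1 libraries lay below every mock library.

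The other falls in this group were smaller. They were those of Ddx56 with a log2 fold change of -0.36 (SE 0.10), Dhx37 with -0.34 (SE 0.07), Ddx54 with -0.33 (SE 0.09), Ddx10 with -0.30 (SE 0.08), Ddx47 with -0.29 (SE 0.07), Ddx24 with -0.27 (SE 0.07) and Ddx18 with -0.22 (SE 0.07). The calls of Ddx54, Ddx56 and Ddx18 were lost without mock replicate 1, those of Ddx10 and Ddx18 without METTL7A1 replicate 2, and that of Ddx18 also without mock replicate 2. Dhx37, a DEAH box protein, acts on the small subunit precursor, and Ddx18, the counterpart of yeast Has1, acts on both. Ddx18 shares 61.5% of its stretches of 31 bases with Gm16433, which had at most 27 counts in a library. Ddx27 and Ddx51, of the large subunit pathway, and Ddx21 were not called.

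Ddx50 and Ddx21 encode paralogous nucleolar helicases and lie side by side on chromosome 10 (62616023 to 62651218 and 62580248 to 62602298, both on the minus strand). Ddx50 had 2176, 3516 and 2788 counts with METTL7A1 and 1431, 1893 and 2075 in mock. At equal depth this was 116 ± 3.07 against 80.0 ± 3.09 cpm (SD, n = 3 each), a log2 change of 0.54 (SE 0.07, edgeR adjusted p = 8.14e-05). All METTL7A1 libraries lay above all mock libraries. Ddx21, described here because it adjoins Ddx50 and chosen after its values were seen, had 7567, 12113 and 10464 counts with METTL7A1 and 7676, 10558 and 9723 in mock. This was 414 ± 8.96 against 416 ± 22.4 cpm, and the log2 fold change of -0.01 had a 95% interval from -0.17 to 0.16.

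**Figure D3:**
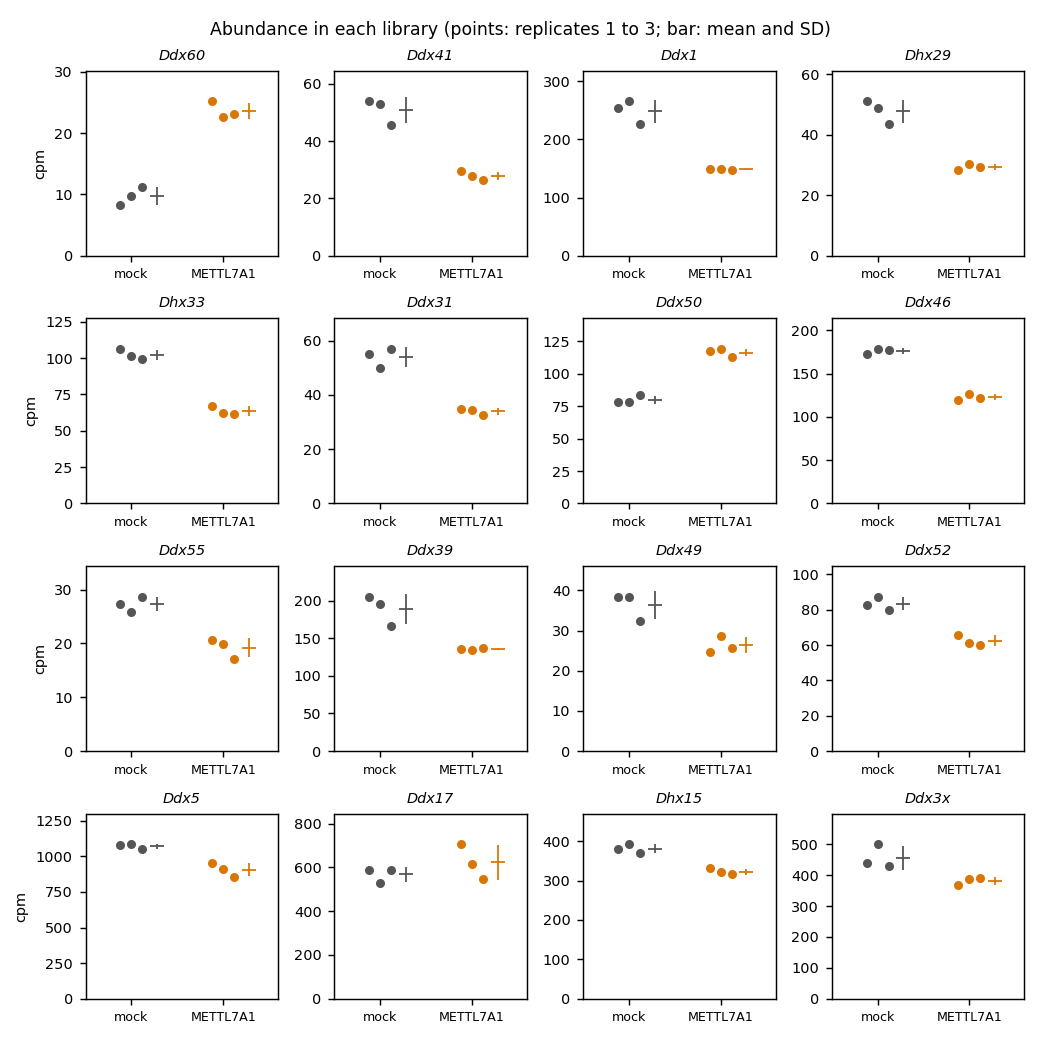
Abundance (cpm on scaled library sizes, axes from 0) of 16 helicase genes in each mock (grey) and METTL7A1 (orange) library, with mean and SD beside the points. For the first 12 genes, those with the largest called changes, the groups do not overlap, and the METTL7A1 libraries are higher in Ddx60 and Ddx50 and lower in the other 10. Of the 4 abundant genes in the bottom line, Ddx17 overlaps between groups.

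Splicing is driven by a fixed order of helicases that load, rearrange and release the small nuclear RNAs. Of 10 genes of the spliceosome, 5 fell and 5 were not called, with a median log2 fold change of -0.13. For all tested genes the shares were 42.1% called and 21% lower. The calls of Ddx46 and Dhx38 were lost when neighbouring genes were taken into account (below). Ddx41, a helicase of the late spliceosome that has also been described as a sensor of nucleic acids, had 546, 825 and 656 counts with METTL7A1 and 985, 1281 and 1133 in mock. It went from 50.8 ± 4.50 in mock to 28 ± 1.41 cpm (SD, n = 3 each), the largest fall of any helicase gene, with a log2 change of -0.86 (SE 0.08, edgeR adjusted p = 2.06e-05). The METTL7A1 libraries (26.6 to 29.4 cpm) and mock libraries (45.6 to 53.8 cpm) were far apart.

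Ddx46, the counterpart of yeast Prp5, acts early, when the branch site is recognised. It had 2223, 3745 and 3015 counts with METTL7A1 and 3158, 4319 and 4410 in mock, or 123 ± 3.55 against 176 ± 3.04 cpm, a log2 change of -0.52 (SE 0.07, edgeR adjusted p = 0.000107). Replicates of each group were close, and the groups were apart. Dhx15, the release factor at the end of the cycle, had 6147, 9468 and 7793 counts with METTL7A1 and 6960, 9487 and 9176 in mock, a level of 323 ± 7.82 against 380 ± 11.1 cpm. Its change of -0.24 on the log2 scale (SE 0.07, edgeR adjusted p = 0.0199) was lost in 4 of the 6 fits that left out a library (METTL7A1 replicates 2 and 3, mock replicates 1 and 2), with adjusted p values up to 0.0767.

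Dhx8 and Dhx38, which act around the catalytic steps, fell with log2 values of -0.33 (SE 0.06) and -0.27 (SE 0.08), respectively, and the call of Dhx38 was lost without mock replicate 1. The genes of this group that were not called were Ddx23, Ddx42, Ddx39b, Dhx16 and Dhx35, with log2 fold changes between -0.03 and 0.16. Ddx23 was called without METTL7A1 replicate 1 (0.19).

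In nuclear processing outside the core spliceosome, 3 of 5 genes fell, against 21% of all tested genes. Ddx1 is a subunit of the ligase complex that joins tRNA exons. It had 2757, 4415 and 3643 counts with METTL7A1 and 4631, 6424 and 5626 in mock, a level of 149 ± 0.877 against 248 ± 19.8 cpm (SD, n = 3 each). The METTL7A1 libraries were almost equal, and all lay below the lowest mock library, at 226 cpm. The log2 fold change was -0.74 (SE 0.08, edgeR adjusted p = 2.83e-05). Ddx20, the Gemin3 subunit of the SMN complex that assembles small nuclear ribonucleoproteins, fell with a log2 fold change of -0.35 (SE 0.07).

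Ddx5 and Ddx17 serve as transcriptional coactivators and splicing regulators and are partly redundant. Ddx5 (chromosome 11, 106780355 to 106788532) had 17668, 26980 and 21087 counts with METTL7A1 and 19715, 26244 and 26072 in mock. At equal depth this was 907 ± 48.8 against 1070 ± 18.0 cpm (SD, n = 3 each), and the METTL7A1 libraries lay below all mock libraries. The change of -0.24 on the log2 scale (SE 0.09, edgeR adjusted p = 0.0434) was lost in 4 of the 6 fits that left out a library (METTL7A1 replicates 2 and 3, mock replicates 1 and 2), with adjusted p values up to 0.165.

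Ddx5 shares 18.5% of its 31-base stretches with Gm12183, which had at most 54 counts. Ddx17 had 13078, 18159 and 13535 counts with METTL7A1 and 10759, 12778 and 14628 in mock, or 623 ± 78.3 against 568 ± 35.3 cpm. Its groups overlapped, since METTL7A1 replicate 3 lay among the mock libraries, and its log2 fold change of 0.13 had a 95% interval from -0.09 to 0.36. The difference between the changes of Ddx5 and Ddx17 was not tested. Dhx9, a nuclear helicase of long duplexes, was not called either, with a log2 fold change of 0.03.

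The genes that act on messenger RNA in the cytoplasm or carry it there numbered 9, of which 8 were tested and 4 fell (median log2 fold change -0.22). By comparison, 42.1% of all tested genes were called and 21% fell. Dhx29 (chromosome 13, 112927730 to 112969431), which helps the scanning ribosome through structured leaders, had 529, 893 and 723 counts with METTL7A1 and 934, 1182 and 1086 in mock. Its level was 29.4 ± 0.864 against 47.8 ± 3.76 cpm (SD, n = 3 each), a log2 change of -0.70 (SE 0.08, edgeR adjusted p = 4.97e-05). The METTL7A1 libraries lay between 28.5 and 30.2 cpm, below the lowest mock library at 43.7 cpm.

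Ddx39, an export helicase and paralog of Ddx39b, had 2507, 3954 and 3363 counts with METTL7A1 and 3750, 4735 and 4135 in mock. The level was 135 ± 1.25 against 189 ± 20.1 cpm, and the log2 fold change -0.48 (SE 0.08, edgeR adjusted p = 0.000884). The groups were apart, with mock replicate 3 the nearest to METTL7A1. Exons of Ddx39 overlap those of Adgre5 on the opposite strand, and Adgre5 had at most 63 counts.

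Ddx3x (chromosome X, 13280970 to 13294052), needed for translation of mRNAs with structured leaders, had 6831, 11406 and 9650 counts with METTL7A1 and 8037, 12103 and 10664 in mock. It went from 456 ± 37.9 in mock to 382 ± 12.2 cpm, and the groups did not overlap, with mock replicate 2 the highest library. The change of -0.26 on the log2 scale (SE 0.08, edgeR adjusted p = 0.0280) was lost when METTL7A1 replicate 2 or 3 or mock replicate 1 or 2 was left out, with adjusted p values up to 0.113. Ddx19a, which releases exported mRNA at the nuclear pore, fell with a log2 fold change of -0.26 (SE 0.07), and its neighbour and paralog Ddx19b, with -0.18 (SE 0.08), was not called. Without mock replicate 2 the call of Ddx19a was lost. These paralogs share 32.0% of the 31-base stretches of Ddx19a, so that their counts may not be fully separate. The decay helicase Ddx6, the quadruplex helicase Dhx36 and Dhx34, of nonsense-mediated decay, were not called, with log2 fold changes between -0.07 and -0.01.

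Of the mitochondrial helicases, which assemble the mitochondrial ribosome, Dhx30 fell with a log2 fold change of -0.30 (SE 0.08), and Ddx28, at -0.31 (SE 0.15), was not called. Without METTL7A1 replicate 3 or mock replicate 1 the call of Dhx30 was lost, and without mock replicate 3 Ddx28 was called (-0.47). Ddx11, a DNA helicase of sister chromatid cohesion, was not called with -0.21 (SE 0.09), but was without METTL7A1 replicate 1 (-0.29). The genes with no role assigned, Dhx40, Dhx32, Dhx57, Ddx26b and Ddx59, were not called, with log2 fold changes from -0.22 to 0.17. Exons of Ddx54, Ddx59, Dhx32, Ddx28, Ddx17 and Dhx57 also overlap another gene on the opposite strand.

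Ddx60 (chromosome 8, 61928089 to 62038244) encodes a helicase induced by interferon that takes part in the antiviral response together with the RIG-I-like receptors. It had 467, 671 and 571 counts with METTL7A1 and 151, 238 and 277 in mock. At equal depth this was 25.2, 22.7 and 23.2 cpm against 8.25, 9.82 and 11.1 cpm, so that the lowest METTL7A1 library was above the highest mock library. The means were 23.7 ± 1.31 and 9.74 ± 1.45 cpm (SD, n = 3 each), a 2.41-fold rise and a log2 change of 1.27 (SE 0.11, edgeR adjusted p = 1.05e-05). The call held in all 6 fits that left out a library. The genes of the receptors themselves, which are no part of the families as defined here, rose too, with log2 changes of 0.36 (SE 0.07) for Ddx58 and 1.58 (SE 0.16) for Dhx58.

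The promoter of Ddx60 is shown because this gene had the largest change. It covers 300 bases around the start in RefSeq, most of them before it (build GRCm38.p6, chr8:61927837-61928136, plus strand), and capitals mark matches to GAAANNGAAA, the core of the element bound by interferon regulatory factors, searched on both strands.
Ddx60 promoter: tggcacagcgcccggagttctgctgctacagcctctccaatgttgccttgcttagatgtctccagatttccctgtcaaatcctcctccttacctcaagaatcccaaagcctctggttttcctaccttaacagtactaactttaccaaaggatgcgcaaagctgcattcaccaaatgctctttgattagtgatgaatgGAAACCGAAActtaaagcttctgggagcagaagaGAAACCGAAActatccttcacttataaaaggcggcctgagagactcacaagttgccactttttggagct
The motif occurred here at positions 198 and 232 of the window, counted from its 5′ end. Of 45 helicase genes with a promoter in the table, 2 held the motif, Ddx60 and Ddx49, against 3.99% of 27025 genes overall. CACGTG, the E-box bound by Myc among other factors, was found in 7 of the 45 genes (15.6%), against 8.09% of genes overall. Among the genes with a promoter, it was found in 2 of 23 that fell (8.70%) and in 3 of 17 tested and not called (17.6%). A match of letters is a description and not a binding site.

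Chromosome position was examined because neighbouring genes changed together in some regions. For each gene the median change of its 40 nearest genes with an average of over 2 log2 cpm was taken. The test was then repeated on the change beyond that median. The median came from the same libraries and was treated as fixed, so the SE and p values of this test leave out its uncertainty. At Ddx50 the neighbours had a median of 0.50, and 1 of the 40 was lower in METTL7A1. Beyond its neighbours Ddx50 changed by 0.04 (SE 0.07, edgeR adjusted p = 0.697), and its call was lost. Ddx21, in the same region, was not called by itself and was lower than its neighbours by a log2 value of -0.52 (SE 0.08, edgeR adjusted p = 4.00e-04).

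Ddx41 and Ddx46 lie on chromosome 13 (55530410 to 55536658 and 55635027 to 55681256), where 39 of the 40 neighbours of each were lower. Their neighbours had medians of -0.49 and -0.48. Beyond these, Ddx41 was lower by -0.37 (SE 0.08, edgeR adjusted p = 0.00683), and Ddx46 by -0.04 (SE 0.07, edgeR adjusted p = 0.711). At Ddx1 (chromosome 12, 13219308 to 13249213) 36 of 40 neighbours were lower with a median of -0.49, and the gene went beyond them by -0.25 (SE 0.08, edgeR adjusted p = 0.0304). For Ddx60, Dhx29, Dhx33 and Ddx31 the neighbours had medians between -0.21 and -0.07, and these changes kept their calls.

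With the neighbours taken into account, 20 helicase genes were called (41.7%), 2 higher (Ddx60 and Dhx40) and 18 lower, against 31.5% of all genes. Of the 27 calls, 18 were kept in the same direction. The 9 lost were those of Ddx50, Ddx46, Ddx5, Ddx19a, Ddx24, Ddx54, Ddx56, Dhx30 and Dhx38, and Dhx40 and Ddx21 were gained. Ddx3x, whose neighbours had a median of 0.12, stood lower than them by -0.38 (SE 0.08, edgeR adjusted p = 0.00546). The reason for the shared changes of neighbouring genes was not tested.

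**Figure D4:**
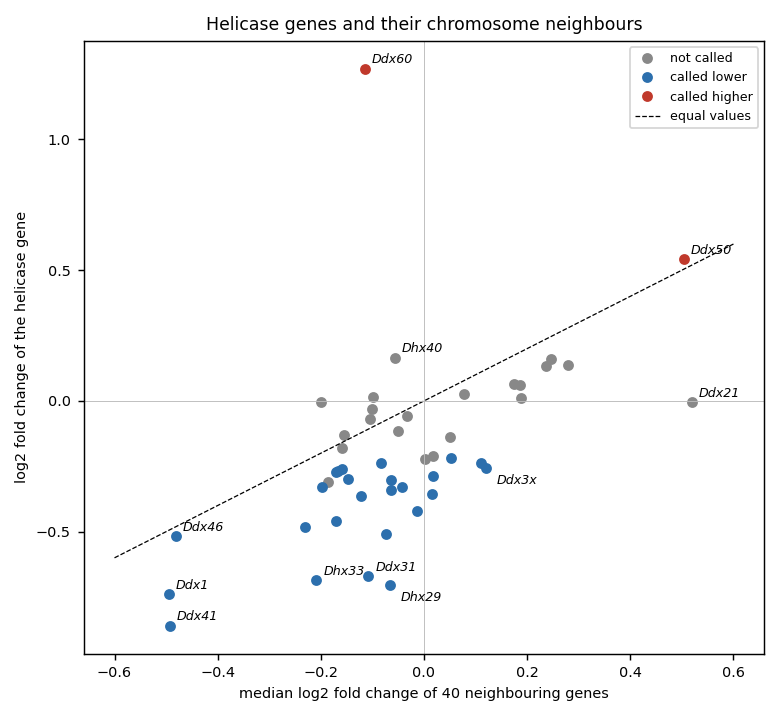
Log2 fold change of each of the 48 tested helicase genes against the median of its 40 nearest genes, coloured by call, with a dashed line of equal values. Ddx50 and Ddx46 lie on the line, Ddx41 and Ddx1 lie below it at neighbour medians of -0.49, and Ddx60 at 1.27 and Ddx21 at -0.01 lie far from it.

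Helicases related to these families under other symbols moved in both directions. Of 19 in the table, 17 were tested, and 5 rose and 5 fell (58.8% called), with a median log2 fold change of -0.04. By comparison, 42.1% of all tested genes were called, 21.1% higher and 21% lower. Dqx1, a DEAH-like protein, rose with 0.90 (SE 0.15), Helz2 with 0.46 (SE 0.08) and Ythdc2, a reader of methylated RNA with a helicase domain, with 0.35 (SE 0.11). Ascc3, which splits collided ribosomes, fell with -0.72 (SE 0.07), and Upf1, the helicase of nonsense-mediated decay, with -0.35 (SE 0.07). Without mock replicate 1 or without mock replicate 2 the number called was 6 in place of 10. Among all tested genes 4251 and 4602, respectively, were called in these fits, against 5537 with every library. Ythdc2 was lost in these fits and in those without METTL7A1 replicate 1 or 2. Beyond their neighbours Ythdc2 changed by -0.03 (SE 0.11, edgeR adjusted p = 0.843) and Upf1 by -0.18 (SE 0.07, edgeR adjusted p = 0.0582), and both calls were lost.

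Known protein partners of the helicases were also examined. Of 36 tested, 16 were called (44.4%, near the 42.1% of all tested genes), 4 higher and 12 lower, with a median log2 fold change of -0.16. Thoc3, a subunit of the export complex that works with Ddx39b, fell with -0.61 (SE 0.09), Gemin2 and Gemin5, of the SMN complex with Ddx20, with -0.61 (SE 0.09) and -0.53 (SE 0.07). Lsm14b, a partner of Ddx6, rose with 0.60 (SE 0.07), and Sarnp, of the export complex, with 0.50 (SE 0.07). With the neighbours taken into account 6 partners were called (16.7%, against 31.5% of all genes). Gemin5 and Lsm14b kept their calls, whereas those of Thoc3 (-0.11, edgeR adjusted p = 0.394), Gemin2 (-0.12, edgeR adjusted p = 0.341) and Sarnp (0.09, edgeR adjusted p = 0.326) were lost.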

How the data were processed

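Total RNA of 6 libraries of 4T1 cells was sequenced after ribosomal RNA depletion with a stranded kit. Per the labels, the authors used bcl2fastq 2.20.0.422, STAR 2.5.3a and featureCounts with build GRCm38 (mm10) and deposited the raw gene counts, with no scaling. The deposited table also lists the exon length of each gene, an annotation value used here for levels per length. How strand and reads with several positions were treated is not given in the sources used here.

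Groups and replicate numbers came from the sample titles. The analysis used edgeR 4.0.16 (R 4.3.3). Genes were kept at 1 cpm or more in at least 3 libraries, libraries were scaled by TMM, and METTL7A1 was compared with mock by the quasi-likelihood test (glmQLFit, glmQLFTest), fitted on all genes, with two-sided p values adjusted by Benjamini-Hochberg. The test was first tried on simulated data. A gene was called at an adjusted p under 0.05. The SE was the absolute log2 fold change divided by the square root of F, and 95% intervals used the t quantile at the degrees of freedom of the test. Cpm values use TMM-scaled library sizes. The neighbour fit subtracted the neighbours' median as an offset.

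Alternatives were other scaling (RLE, upper quartile), other filters (none, or 10 counts or more in each library), a fit without the 20 most abundant genes, a block for the replicate number, omission of single libraries, DESeq2 1.42.0, limma 3.58.1 (voom), glmTreat and a linear threshold. Replicates differed by far more than sampling noise, so none was counted as a duplicate. Every member was named. Full values were given for the 12 largest calls, Ddx5, Ddx3x and the 5 highest levels per length, and for up to 5 called related helicases and 5 partners the fold change. The members and lists were chosen with earlier results of these data known.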

Additional observations from a re-analysis of the deposited data

How the results depend on the processing

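The 27 calls of helicase genes were the same with RLE or upper quartile scaling, with a minimum of 10 counts in every library, with DESeq2 and with limma voom. Without an abundance filter 22 were called (lost: Ddx3x, Ddx19a, Ddx5, Ddx18 and Dhx15), and without the 20 most abundant genes 28 (Dhx40 gained). Deviations from the group means correlated between the groups at -0.15, 0.20 and -0.37 for replicate numbers 1 to 3. With so few libraries, these values cannot settle whether the numbers pair the libraries. With the replicate block 24 were called, 2 higher and 22 lower (lost: Ddx3x, Ddx5 and Ddx18). When single libraries were left out, the number called ranged from 19 to 29 for the helicase genes, where Ddx5, Ddx3x and Dhx15 were lost in 4 of 6 fits and Ddx18 in 3, and from 6 to 10 for related helicases. The number called among all tested genes also varied in these fits, from 3761 (without METTL7A1 replicate 2) to 5753 (without mock replicate 3). With the neighbour offset 6 of the partners were called in place of 16. The study thresholds called 0 helicase genes in edgeR, also with glmTreat, and 6 with a limit of 1.5-fold on the linear scale. Among the helicase genes no called value changed its sign, and 34 sign changes occurred between values not called in either setting. Called values of some related helicases and partners did change sign with the neighbour offset. Examples were Ythdc2 (0.35 to -0.03), Supv3l1 (0.34 to -0.18) and Rtcb (0.43 to -0.06), which were not called with it. Of the 5 highest levels per length, 4 were also among the 5 highest in plain cpm. The causes of the lost calls were not tested.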
